A study of Solanum lycopersicum with 84 samples.

Results

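The transcripts described here were far more abundant in the dissected embryo than in the dissected endosperm and seed coat, and reached their highest mean embryo level in over-ripe fruit. Whole seeds, which were collected earlier, took no part in the choice. They were selected on measured levels in these same libraries, expressed as CPM, the count scaled to a common library total and averaged over the 3 libraries of each tissue and stage. A gene was retained when its highest embryo stage mean exceeded 1 CPM, when that mean was at least 10 times the highest stage mean of the endosperm and of the seed coat, and when the highest embryo stage was R7 or R14. Of 33976 genes in the table, 18510 had an embryo stage mean above 1 CPM, 494 were embryo-preferential at some stage, and 119 of these were highest at R7 (25 genes) or R14 (94 genes). Embryo-preferential genes were most often highest at 35 DAF (285 genes), and next most often at DO (24 genes), 42 DAF (16 genes) and R (14 genes) among the stages outside the rule.

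The seeds came from the tomato cultivar Moneymaker grown in a greenhouse, and each of 28 groups comprised 3 libraries labelled as replicates, 84 in all. The study calls the replicates biological, but neither it nor the labels say whether they came from separate plants. The p-values rest on a spread estimated over all 84 libraries together, and hold for these libraries only. Whole seeds were collected at 15, 21 and 28 days after flowering (DAF), hand-dissected seed coats at 35, 42 and 49 DAF, and hand-dissected embryos and endosperms at 35, 42 and 49 DAF and then from fruits that were mature green (MG, 56 DAF), breaker (B, 63 DAF), pale orange (PO, 67 DAF), orange (O, 70 DAF), dark orange (DO, 72 DAF), red (R, 76 DAF), or red and left for a further 7 days (R7, 83 DAF) or 14 days (R14, 90 DAF). In this bulk material, fewer cells of a type and less RNA per cell cannot be told apart. Library totals lay between 16908779 and 22734330 counts, so that 3 counts, taken as the detection limit per library, corresponded to at most 0.162 CPM in endosperm and seed coat.

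A tomato seed completes its maturation inside a wet, ripening fruit, and its embryo stays hydrated and alive until the seed is released. Abscisic acid (ABA) and its signalling proteins are known to keep such an embryo from germinating, and late embryogenesis abundant (LEA) proteins accumulate as it becomes able to survive drying. The embryo itself holds the shoot and root meristems, the groups of dividing cells that form the seedling.

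The libraries of the over-ripe embryo did not resemble one another equally. R14 replicate 1 held the highest embryo level of 80 of the 119 genes (67.2%) and R7 replicate 3 that of 19 (16.0%), whereas over all 18510 genes these libraries held 10.7% and 7.28%. The rule itself places the highest stage mean at R7 or R14, and among all 6078 genes of the 18510 for which this holds the shares were 24.7% and 15.1%. R14 replicate 1 was thus in excess of that share and R7 replicate 3 was close to it. The level and the preference were also judged on means that include these libraries. A high value in a single library helps a gene to qualify, so the excess was partly set by the rule. The median level of the 119 genes was 8.45 CPM in R14 replicate 1 and 5.25 CPM in R7 replicate 3, against 2.14 and 1.21 CPM in R14 replicates 2 and 3 and 0.334 and 0.431 CPM in R7 replicates 1 and 2. Above the detection limit were 118 of the 119 genes in R14 replicate 1 and all 119 in R7 replicate 3, but only between 65 and 97 in the other 4 libraries. An earlier library, DO replicate 2, stood apart in the same way, with 114 genes detected and a median of 3.57 CPM. DO replicate 1 had 81 genes and 0.994 CPM, and DO replicate 3 had 60 genes and 0.194 CPM. Intermediate levels were also found in R replicates 2 and 3, with 92 and 88 genes and medians of 1.51 and 1.67 CPM.

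**Figure D1:**
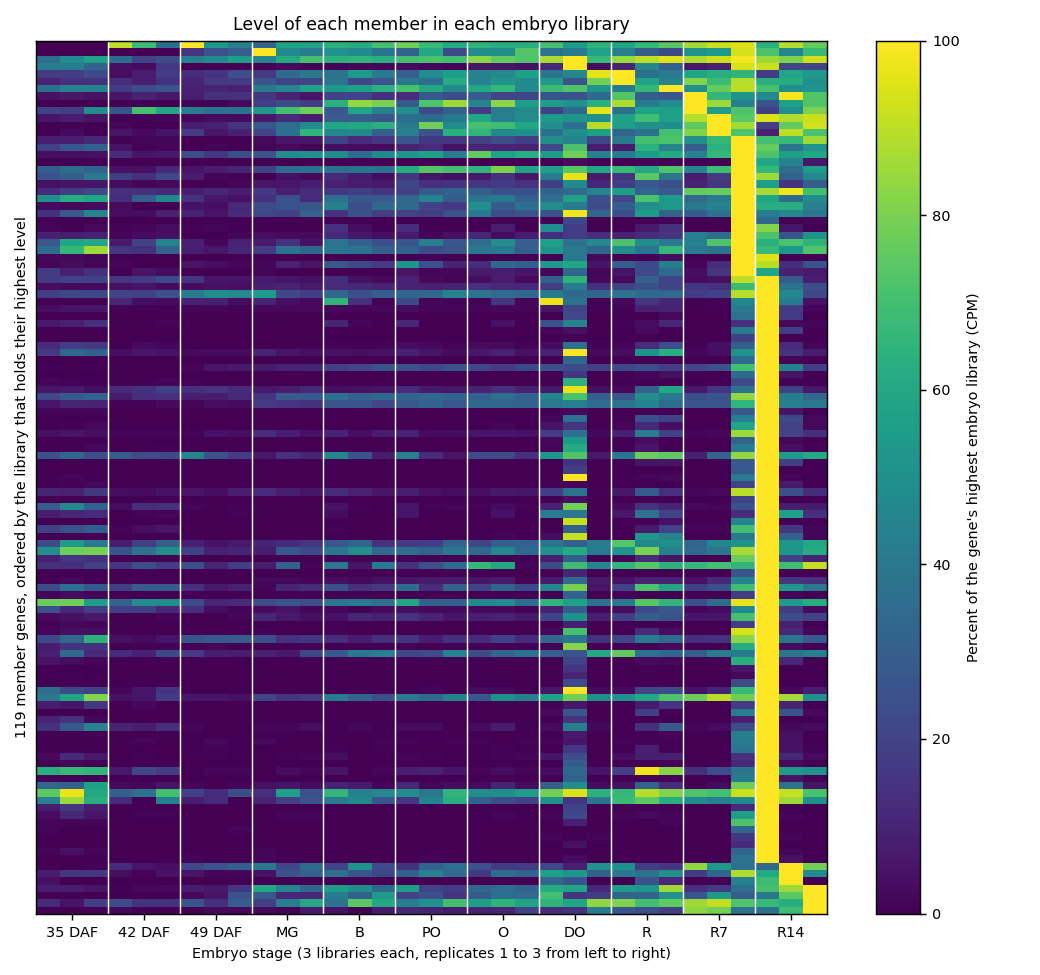
Level of each of the 119 genes (rows) in each of the 33 embryo libraries (columns, 3 per stage), as a percentage of the highest embryo library of that gene. Rows are ordered by the library holding the highest level, and R14 replicate 1 holds it for 80 genes, R7 replicate 3 for 19.

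Other measures moved with these libraries. The summed level of 6 LEA and seed maturation genes was 6464 CPM in R14 replicate 1 and 7312 CPM in R7 replicate 3, and lay between 9847 and 10931 CPM in the other 4 over-ripe embryo libraries. It was 10212 CPM in DO replicate 2, and 12259 and 14394 CPM in the other DO libraries. More genes exceeded 1 CPM in R14 replicate 1 (17147) and R7 replicate 3 (17142) than in the other over-ripe libraries (between 15176 and 16415). In the endosperm, libraries with the same numbers also differed from the others of their stage. The maturation sum was 10898 CPM in R14 replicate 1 (others 13738 and 13026) and 10436 CPM in R7 replicate 3 (others 13605 and 12521). In DO replicate 2 it was 14401 CPM, between the others (14438 and 13644). Of the 119 genes, 31, 29 and 42 were detected in these endosperm libraries, more than in the others of each stage. The numbers did not match at R. There, 26, 19 and 50 genes were detected in endosperm replicates 1 to 3, but 70, 92 and 88 in the embryo replicates. The part of these measures in the levels of the 119 genes was not tested. In the embryo, the 168 endosperm genes summed to 34.0 CPM in R14 replicate 1 and 43.4 CPM in R7 replicate 3. The other 4 over-ripe embryo libraries held 37.6 to 47.2 CPM, and every endosperm library at least 1495 CPM. The 85 seed coat genes moved with the libraries that stood apart, at a low level. They summed to 25.3 CPM in R14 replicate 1 against 16.6 and 12.5 CPM in the other R14 libraries, and to 20.6 CPM in R7 replicate 3 against 10.4 and 9.08 CPM. At DO they summed to 21.4 CPM in replicate 2, and to 20.2 and 7.59 CPM in the others, while seed coat libraries held at least 1035 CPM. The part of seed coat RNA in the levels of the 119 genes was not tested. The 8 fruit ripening genes gave 14.3 and 10.2 CPM, within the range of 1.48 to 17.6 CPM of the other over-ripe embryos, against at least 137 CPM in the seed coat. The 101 embryo list genes that were not among the 119 summed to more than 185 CPM in all 33 embryo libraries. The lowest of these sums was that of R14 replicate 1, with 236 and 248 CPM in the other R14 embryos. R7 replicate 3 held 242 CPM, against 198 and 215 CPM in the other R7 embryos. Seed coats held no more than 52.7 CPM. Endosperms held up to 191 CPM, in 42 DAF replicate 3, which is above the sum of embryo R14 replicate 1. The tissue lists came from work on these same samples and were held here only in part, mostly genes of chromosomes 1 and 2.

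**Figure D2:**
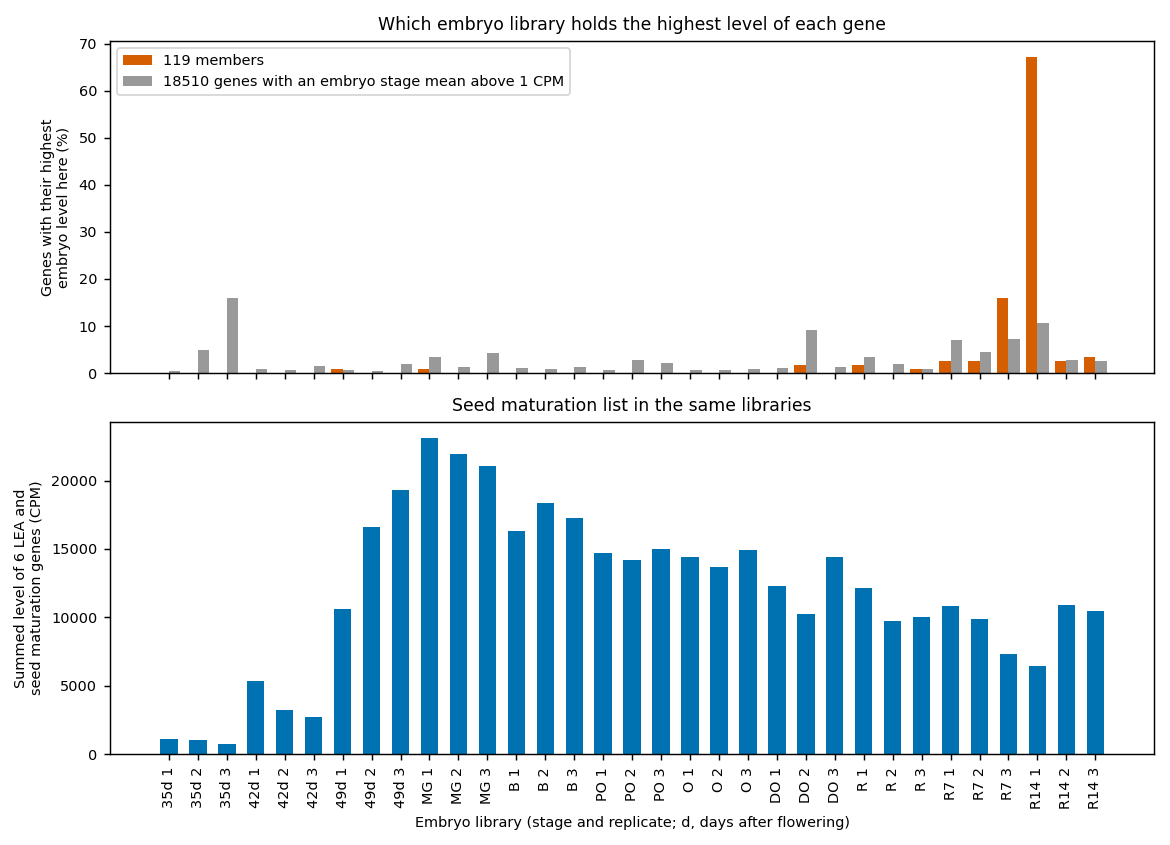
Upper panel, percentage of genes whose highest embryo level lies in each of the 33 embryo libraries, for the 119 genes (orange) and for 18510 genes with an embryo stage mean above 1 CPM (grey). Lower panel, summed level (CPM) of 6 LEA and seed maturation genes in the same libraries; R14 replicate 1 and R7 replicate 3 hold the lowest sums of the stages after 49 DAF, 6464 and 7312 CPM.

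Most of the 119 genes were of low abundance. The highest stage mean ranged from 1.02 to 1068 CPM with a median of 5.08 CPM, and reached 10 CPM for 41 genes and 100 CPM for 7. In endosperm and seed coat, 32 genes did not pass the detection limit in any library. For 17 genes the embryo mean lay below 1.62 CPM, 10 times that limit, so that the depth hardly resolves a 10-fold preference for them. The 4 genes with the smallest preference that still met the rule were Solyc11g007570.2.1 (10.1-fold), Solyc12g049475.1.1 (10.9-fold), Solyc02g078050.4.1 (10.9-fold) and Solyc03g094000.3.1 (11.1-fold). Just outside were Solyc06g069110.4.1 (9.84-fold, 78.1 CPM at R14), Solyc05g007640.3.1 (9.80-fold), Solyc01g008650.3.1 (9.71-fold) and Solyc01g056770.1.1 (9.63-fold). At the lower limit of abundance, Solyc06g063430.2.1 and Solyc03g094000.3.1 had 1.02 CPM, and Solyc01g010600.4.1 missed it with 0.939 CPM.

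The spread between libraries was wide. The coefficient of variation (SD divided by mean) of the 3 libraries at the highest stage had a median of 1.15 over the 119 genes, compared with 0.191 for the 375 embryo-preferential genes highest at another stage, 0.159 for all 6078 genes highest at R7 or R14 in the embryo, and 0.161 for the 18510 genes. It was 1.32 for the genes highest at R14 and 0.390 for those highest at R7. A single library supplied more than 50% of the summed level at the highest stage for 86 genes. In all 3 libraries of the highest stage, 38 genes exceeded 1 CPM and 10 times the highest mean of endosperm and seed coat. The same was not true of the other 81.

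Averaged over libraries, the levels were low until the fruit turned dark orange, but not every library shared this step. The median level of the 119 genes was 0.994, 3.57 and 0.194 CPM in the DO libraries. In R7 replicates 1 and 2 it was 0.334 and 0.431 CPM, against 0.330 CPM in B replicate 1 and 0.485 CPM in O replicate 2. The median of the stage means of the 119 genes was 0.505 CPM at 35 DAF, fell to 0.0763 CPM at 49 DAF, and was 0.141 CPM at MG, 2.27 at DO, 1.49 at R, 2.88 at R7 and 4.84 at R14. At MG, 56 of the genes were at or below the detection limit in each library, and 31 were so in each embryo library from 35 DAF to MG. All 3 R14 libraries lay above all 3 MG libraries for 69 of the 119 genes, where 40.1% of the 18510 genes did so, and all 3 R7 libraries for 43, where the share of all genes was 34.4%. The rule used these stages, and nothing is read from these counts.

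Other genes had similar levels in the 3 libraries of their highest stage. SlABI4-2 (Solyc03g095977.1.1) is a homologue of ABI4, a transcription factor that in Arabidopsis acts in ABA and sugar signalling and maintains dormancy. Its levels were 95.6, 101 and 107 CPM at R7 and 93.3, 87.4 and 101 CPM at R14, against 49.5, 66.7 and 77.0 CPM at MG and 91.9, 97.9 and 103 CPM at R. The over-ripe and MG libraries did not overlap, and neither R14 replicate 1 nor R7 replicate 3 stood out. Its highest single library was DO replicate 2 with 109 CPM. Its mean did not exceed 2.65 CPM in endosperm or 1.74 CPM in seed coat. The related gene SlABI4-1 (Solyc03g095973.1.1) was also embryo-preferential, but was highest at R with 32.7 CPM, and was followed closely by R14 (32.0 ± 4.35 CPM, SD, n = 3) and R7 (31.6 ± 6.90 CPM).

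Solyc12g039170.1.1 had the smallest spread of all genes with at least 5 CPM. It showed 11.5, 10.7 and 11.2 CPM at R14, 10.8, 12.2 and 9.06 CPM at R7, 6.62, 6.28 and 6.10 CPM at DO and 0.826, 1.49 and 1.00 CPM at MG. The over-ripe libraries were all above the DO libraries, and these above the MG libraries, with B between 3.26 and 3.54 CPM. For Solyc02g094040.3.1 the values were 52.1, 55.2 and 57.1 CPM at R7, 38.5, 53.6 and 46.1 CPM at R14 and 19.3, 35.1 and 35.2 CPM at MG, without overlap between over-ripe and MG libraries. It was nearly as high much earlier, with 54.6, 41.3 and 21.7 CPM at 42 DAF and 60.3, 31.9 and 25.9 CPM at 49 DAF, so that its highest single library was a 49 DAF embryo. Solyc02g032660.3.1 reached 43.0, 41.1 and 52.1 CPM at R14 and 30.6, 40.5 and 60.9 CPM at R7, after 1.19, 3.73 and 3.58 CPM at MG. All B libraries were already above MG, with 11.7, 7.52 and 9.62 CPM, and the DO libraries had 30.0, 27.0 and 13.0 CPM.

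Less abundant genes were close at R7 but not over all over-ripe libraries. Solyc02g049080.1.1 had 8.49, 9.09 and 9.44 CPM at R7, but 2.58, 8.48 and 7.71 CPM at R14, where replicate 1 lay within the MG libraries (2.39, 4.99 and 5.82 CPM), and its highest library was at R (14.5 CPM). Solyc12g009450.3.1 had 6.01, 5.07 and 6.58 CPM at R7, 4.64, 4.57 and 3.71 CPM at R14 and 7.40 CPM in its highest library, also at R. A late rise between the last stages was seen for Solyc08g078870.3.1, with 13.6, 17.2 and 35.9 CPM at R7 and 70.7, 85.4 and 99.8 CPM at R14. Its R14 libraries were above its R7 libraries, but overlapped with R (55.9, 52.7 and 85.5 CPM), and its MG libraries, the highest with 59.3 CPM, overlapped with R7.

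Many of the most abundant genes, though not SlABI4-2, Solyc08g078870.3.1, Solyc02g094040.3.1 or Solyc02g032660.3.1, belonged to the other kind. In this kind, R14 replicate 1 and R7 replicate 3 were both above the remaining 4 over-ripe libraries. This order was found for 88 of the 119 genes, for 34.5% of the 18510 genes and for 26.0% of those highest at R7 or R14. The rule used means that include these libraries, so the share among the 119 was partly set by it. Nothing is read from that share. Solyc10g075050.2.1, a member of the lipid-transfer protein family, whose proteins carry lipids towards the cuticle and cell wall, was the most abundant of the 119 genes. It had 2343, 684 and 177 CPM at R14, 64.4, 108 and 2113 CPM at R7, and 707, 1524 and 47.1 CPM at DO. The libraries of each of these stages lay both above and below the 35 DAF embryos (386, 457 and 462 CPM). Solyc10g075110.2.1 had 399.6 CPM in R14 replicate 1 and 184 CPM in R7 replicate 3, 164 and 18.8 CPM in R14 replicates 2 and 3, and 1.62 and 2.92 CPM in R7 replicates 1 and 2. It was also high in single earlier libraries, with 387 CPM in DO replicate 1 and 260 CPM in B replicate 1, so its spread was not limited to the libraries that stood apart.

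Solyc01g090760.4.1 had 433, 166 and 104 CPM at R14 and 69.8, 62.5 and 297 CPM at R7. Its MG libraries (35.6, 42.0 and 31.5 CPM) were below all over-ripe libraries, so the rise from MG was shared by all of them and its size was not. Solyc10g007660.3.1, annotated to floral organ abscission, had 363, 168 and 78.1 CPM at R14 and 63.4, 73.0 and 325 CPM at R7. One of its MG libraries, with 201 CPM, was above 4 of the 6 over-ripe libraries. Solyc10g007960.1.1 had 307, 53.3 and 5.0 CPM at R14 and 2.10, 3.25 and 125 CPM at R7, while Solyc02g071700.3.1 had 96.7, 11.7 and 1.28 CPM at R14 and 0.429, 3.92 and 29.4 CPM at R7.

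At the extreme, transcripts were found in few libraries only. Solyc06g073580.4.1 had 296, 50.1 and 0 CPM at R14, 0, 0 and 110.5 CPM at R7, and 64.9 CPM in DO replicate 2. Its mean at R14 was at least 711-fold above the detection limit that endosperm and seed coat did not pass. Solyc02g077020.3.1 had 123, 0.191 and 0 CPM at R14, 0, 0.0478 and 23.5 CPM at R7, and 0 CPM in each endosperm, seed coat and MG embryo library. Solyc09g092700.3.1 showed 86.3, 1.1 and 0 CPM at R14 and 0, 0 and 30.3 CPM at R7. These genes were near or below the detection limit in most other over-ripe libraries and above 23 CPM in both libraries that stood apart.

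Among genes with at least 5 CPM, the 6 largest coefficients of variation were those of Solyc02g077020.3.1 and Solyc09g092700.3.1 and of 4 further genes. Solyc03g044230.1.1 and Solyc05g053170.3.1 were at 0 CPM in 4 of the 6 over-ripe libraries and had 29.4 and 22.7 CPM in R14 replicate 1. Solyc08g014240.4.1 had 18.8 CPM in R14 replicate 1 and 17.1 CPM in DO replicate 2. Solyc06g067910.3.1 had 71.6 CPM in R14 replicate 1 and 46.6 CPM in DO replicate 2. R7 replicate 3 came next, with 8.58 and 16.4 CPM. Solyc03g116060.4.1 likewise had 152 CPM in R14 replicate 1, 67.9 CPM in DO replicate 2 and 20.9 CPM in R7 replicate 3.

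**Figure D3:**
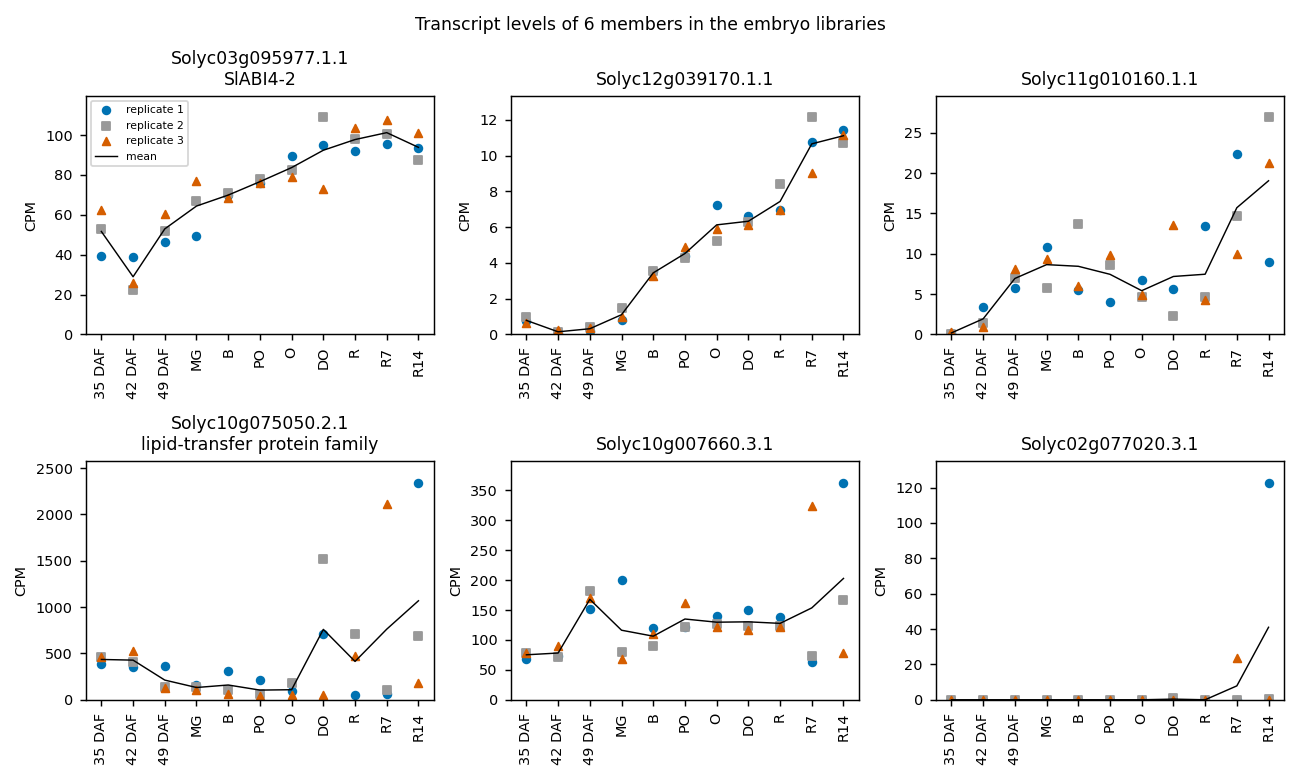
Levels (CPM, linear axes from 0) of 6 of the 119 genes in each embryo library by stage; symbols are replicates and the line is the mean. The upper genes include SlABI4-2, whose 6 over-ripe libraries lie between 87.4 and 107 CPM, and Solyc11g010160.1.1, which is lowest in R14 replicate 1 and R7 replicate 3 among them. The lower genes peak in those libraries.

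In 4 of the 119 genes the order was the opposite, with R14 replicate 1 and R7 replicate 3 below the remaining over-ripe libraries. This order was found for 12.5% of the 18510 genes, and here too the rule bears on the share among the 119. Solyc11g010160.1.1 had 9.01, 26.9 and 21.2 CPM at R14 and 22.4, 14.7 and 10.0 CPM at R7. Solyc11g007570.2.1 had 12.7, 26.2 and 19.3 CPM at R14 and 26.5, 17.5 and 13.7 CPM at R7. Solyc12g010550.1.1 and Solyc04g005657.1.1 completed this group, the first with 15.5 ± 6.05 CPM at R7 (SD, n = 3) and the second with 1.38 ± 0.624 CPM at R14.

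Which genes qualified therefore depended on a few libraries. Without R14 replicate 1, 59 genes met the rule, of which 56 were among the 119, and 33 of the 63 that dropped out had their highest stage elsewhere while the other 30 no longer passed the level or the preference. Leaving out another of the 6 over-ripe libraries gave between 115 and 156 genes, with 111 to 119 of the original set among them. When R14 replicate 1 and R7 replicate 3 were left out together, 40 genes met the rule and 34 of the 119 were retained. These 34 had a median coefficient of variation of 0.367 in the full data, and the 85 that were lost 1.43. With DO replicate 2 left out as well, the count was 41, again with 34 of the 119. SlABI4-2, Solyc02g094040.3.1, Solyc02g032660.3.1, Solyc12g039170.1.1 and Solyc08g078870.3.1 were retained without both libraries. So were Solyc10g007960.1.1 and Solyc06g073580.4.1, whose libraries differed widely. Solyc10g075050.2.1, Solyc01g090760.4.1, Solyc10g007660.3.1 and Solyc10g075110.2.1 were not retained. The scaling of the libraries mattered as well. With TMM factors applied to the library totals, 78 of the 119 genes met the rule and 41 did not. Of these 41, 27 had another highest stage and 14 no longer passed the level or the preference. With DESeq2 size factors 44 were lost, 26 of them to another stage.

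**Figure D4:**
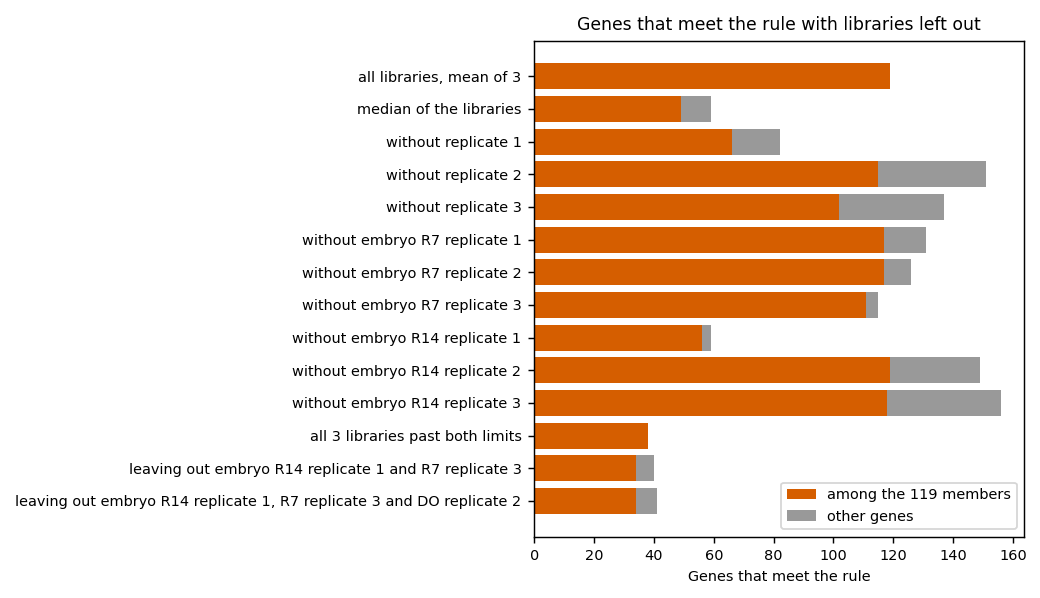
Number of genes that meet the rule (horizontal axis) when libraries are left out, when the median replaces the mean, or when all 3 libraries of the highest stage must pass. Orange marks genes among the 119 and grey marks others; the count is 59 without R14 replicate 1 and 40 without it and R7 replicate 3.

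A description or a Gene Ontology term was at hand for 23 of the 119 genes (19.3%), which are grouped here by these annotations, and the identifiers of the other genes were not paired with names here, since the description table was held in part only. A list of 11 embryo genes chosen by name included 2 of the 119, SlABI4-2 and Solyc10g075050.2.1. Of the other 9, 7 were highest at 35 DAF, SlABI4-1 at R, and Solyc12g017400.3.1, a NAC domain transcription factor, at R7 but with a preference of only 4.59-fold. The list came from work on these same samples.

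Of the 23 annotated genes, 10 were placed in a broad group on meristems, organs and tissues. It also takes in annotations to floral organ abscission, fruit development and transmitting tissue. The share of such annotations over all genes was not counted, and nothing is read from the size of the group. The highest stage means were 1.45 to 203 CPM, and 6 of the 10 genes passed in all 3 libraries of the highest stage. Solyc11g008560.2.1 is annotated to shoot meristem identity, root meristem growth and restraint of germination. It had 7.30, 11.1 and 16.1 CPM at R7 and 10.8, 5.72 and 8.80 CPM at R14, which overlapped with 8.99, 11.9 and 9.53 CPM at DO. Solyc09g090180.1.1, also annotated to the identity of the shoot meristem, had 2.24, 2.92 and 7.73 CPM at R7 and 3.24, 3.57 and 3.09 CPM at R14. Its MG libraries (1.65, 1.59 and 2.43 CPM) overlapped with R7 but not with R14.

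Solyc03g007410.4.1, annotated to the fate of guard cells, the cells that open and close stomata, had 17.3, 6.24 and 9.47 CPM at R14 and 1.53, 3.44 and 20.2 CPM at R7, all above the MG libraries, of which the highest had 0.886 CPM. Solyc01g058520.4.1, annotated to the formation of phloem or xylem, had the smallest spread of this group with 9.81, 11.1 and 7.90 CPM at R14. Solyc11g006090.3.1, annotated to photomorphogenesis and vascular patterning, had 8.26, 12.9 and 15.2 CPM at R7. Solyc01g096280.2.1, annotated to the regulation of growth, had 16.7, 37.2 and 58.1 CPM at R7, and Solyc04g040220.3.1, annotated to the upper and lower sides of leaves, 6.85, 3.65 and 2.70 CPM at R14. Both genes annotated to transmitting tissue, the part of the pistil through which pollen tubes grow, were almost limited to the libraries that stood apart: Solyc04g078790.3.1 had 8.26 and 7.77 CPM there and Solyc12g088790.3.1 had 4.13 and 4.34 CPM, with at most 0.953 CPM in any other over-ripe library.

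Besides SlABI4-2, hormone and dormancy annotations were given for Solyc11g072800.3.1 (ethylene-activated signalling), with 2.39, 2.77 and 2.43 CPM at R7 and little spread, and for Solyc07g038160.4.1 (restraint of germination and of gibberellin signalling), with 5.59, 2.14 and 1.57 CPM at R14. Gibberellin is the hormone that promotes germination. Cell wall and surface annotations covered Solyc10g075050.2.1, Solyc01g107340.4.1 and Solyc02g078050.4.1. Solyc01g107340.4.1, described as a classical arabinogalactan protein, a proteoglycan of the cell surface, had 18.1, 1.43 and 1.33 CPM at R14, and the extensin-like Solyc02g078050.4.1 had 1.72, 0.957 and 1.24 CPM at R7.

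Stress and metabolism annotations were given for 7 genes, and only Solyc07g006700.1.1 (response to wounding) passed in all 3 libraries, with 11.8, 6.67 and 1.62 CPM at R14. Both genes annotated to the biosynthesis of sideretin, a coumarin that Arabidopsis roots release to take up iron, had the same order of libraries. Solyc10g081550.2.1 had 43.8, 9.86 and 0.999 CPM at R14 and 0, 0 and 18.8 CPM at R7, and Solyc06g073570.4.1 had 26.0, 4.81 and 0 CPM at R14 and 0, 0 and 7.30 CPM at R7. The second lies next to Solyc06g073580.4.1, described above with 296, 50.1 and 0 CPM at R14, and a division of reads between them was not tested. In total 8 pairs of the 119 genes were separated by at most 2 other genes in the table.

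Whole seeds were not used to choose the genes, and their course from 15 to 28 DAF could be tested. Of the 119 genes, 111 passed the filter on low counts and the other 8 were not tested. From 15 to 28 DAF, 23 rose and 11 fell, where 11.6% of all 24676 genes tested rose and 11.4% fell (edgeR quasi-likelihood test, absolute log2 fold change above 1 and Benjamini-Hochberg adjusted p under 0.05). The filter was applied over all 84 libraries, and many of the 111 passed it through embryo libraries. In a fit of the compared whole seed libraries alone, 54 of the 119 genes were tested, 22 rose and 18 fell, with a median log2 fold change of 0.02, and 2827 of 21441 genes rose and 2932 fell. The share of the 119 that changed, and any excess of rises over falls, therefore rest on the filter, and nothing is read from them. Of the 23 that rose, 15 belonged to those with R14 replicate 1 and R7 replicate 3 on top, as did 9 of the 11 that fell and 80 of the 111 tested. With replicate 2 left out, 117 of the 119 genes were tested, 15 rose and 6 fell, where 1976 of 24791 genes rose and 1622 fell. When only library totals were used for scaling, 20 rose and 14 fell, and the split over all genes moved from 2867 higher and 2807 lower to 2067 and 4774.

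Values follow for genes that rose in whole seeds, some of them annotated above, and nothing is read from their annotations. Solyc01g096280.2.1, annotated to the regulation of growth, rose from 0.236, 0 and 0.0465 CPM to 37.1, 30.6 and 50.0 CPM (edgeR, log2 fold change 8.86 with standard error 1.07, adjusted p = 1.27e-09), and its whole seed level was as high as its over-ripe embryo level. Solyc09g090180.1.1 of shoot meristem identity was at 0 CPM at 15 DAF and at 2.49, 2.98 and 3.02 CPM at 28 DAF, at least 16.0-fold higher (edgeR, adjusted p = 8.07e-11). Solyc03g007410.4.1 of guard cell fate went from 0 CPM in each library to 2.26, 2.61 and 2.98 CPM, at least 14.8-fold higher (edgeR, adjusted p = 1.60e-05). The libraries of both ages did not overlap for any of these genes.

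Solyc02g032660.3.1 was at 0 CPM at 15 DAF and averaged 1.58 ± 0.366 CPM (SD, n = 3) in the oldest whole seeds, at least 8.88-fold higher (edgeR, adjusted p = 9.08e-10), and Solyc06g082530.3.1 was at least 5.86-fold higher (edgeR, adjusted p = 5.89e-07). SlABI4-2 rose from 1.54 ± 0.233 to 14.8 ± 0.614 CPM (SD, n = 3), with a log2 fold change of 3.63 (edgeR, standard error 0.63, adjusted p = 3.68e-06). Solyc10g075050.2.1 rose from 14.1 ± 2.35 to 93.4 ± 22.9 CPM (SD, n = 3), with a log2 fold change of 3.11 (edgeR, standard error 1.07, adjusted p = 0.0159). Without replicate 2 its adjusted p was 0.169, the highest of its alternatives, which began at 1.36e-05. Of the 23 genes that rose, 10 were at or below the detection limit in each library at 15 DAF. The smallest of these rises lay close to that limit. Solyc02g068510.2.1 averaged 0.138 CPM at 28 DAF, only 0.777 times the limit at 15 DAF. Solyc01g006580.4.1 and Solyc12g014300.3.1 averaged 0.397 and 0.444 CPM at 28 DAF, at least 2.24-fold and 2.50-fold higher.

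The 11 genes that fell had between 2.05 and 214 CPM at 15 DAF. Solyc08g074620.3.1 had 222, 197 and 224 CPM at 15 DAF, 15.2, 27.5 and 28.2 CPM at 21 DAF and 0.999, 0.0458 and 0.137 CPM at 28 DAF (edgeR, log2 fold change -8.69 with standard error 1.31, adjusted p = 1.00e-05). Its highest embryo library, R14 replicate 1, had 5.54 CPM. DESeq2 gave an adjusted p of 0.23 for it, the highest of its alternatives, with a log2 fold change of -8.70. Solyc07g006700.1.1 of the wounding annotation fell from 39.1, 42.8 and 49.1 CPM to 0.600, 0.366 and 0.504 CPM (log2 fold change -6.09, standard error 1.03, edgeR, adjusted p = 5.58e-06).

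Solyc06g009190.4.1 fell from 9.57 ± 0.372 to 0.123 ± 0.0706 CPM (SD, n = 3; edgeR, adjusted p = 0.00196), but had an adjusted p of 0.27 in DESeq2, the highest of its alternatives, which began at 1.50e-06. Solyc01g079570.3.1 fell from 13.8 ± 1.25 to 0.246 ± 0.232 CPM (SD, n = 3; edgeR, adjusted p = 0.00641), with 0.0663 when replicate 2 was left out. Solyc06g005070.3.1, annotated to responses to wounding and jasmonic acid, fell from 4.20 ± 1.33 to 0.107 ± 0.0956 CPM (SD, n = 3; edgeR, adjusted p = 4.59e-05). In 12 of the 119 genes the highest whole seed mean exceeded the highest embryo mean, 11 of them at 15 DAF, and 9 of these 12 were among the genes that fell. Solyc02g063150.3.1 averaged 111 ± 12.6 CPM (SD, n = 3) in the youngest whole seeds and had 128, 23.8 and 0.619 CPM in the R14 embryos. For 64 of the 119 genes, the highest embryo mean was at least 10 times every whole seed mean, and 33 did not pass the detection limit in any whole seed library.

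**Figure D5:**
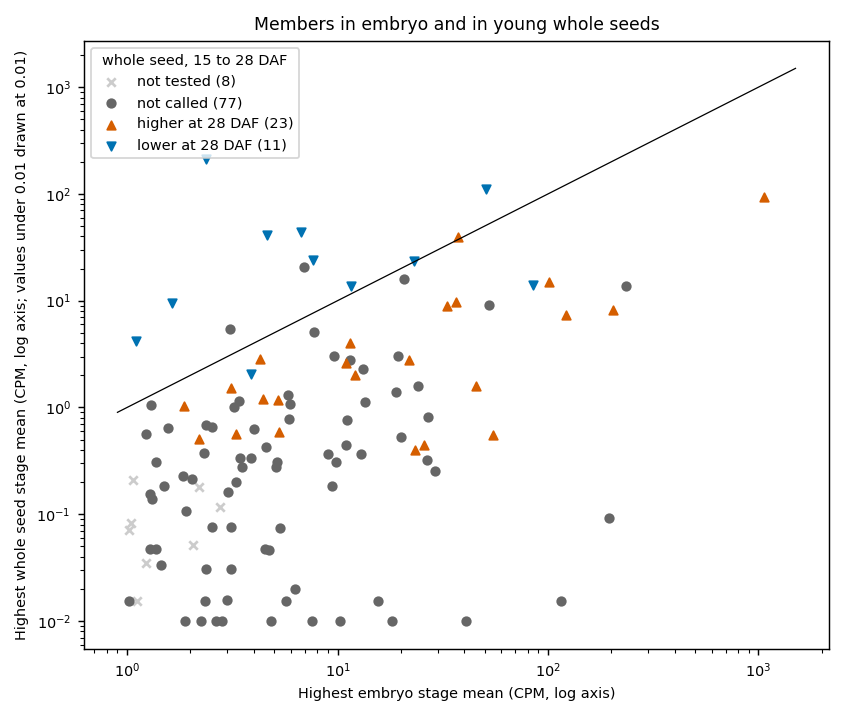
Highest embryo stage mean (horizontal, CPM, log axis) and highest whole seed stage mean (vertical, CPM, log axis) of the 119 genes, marked by the test of whole seeds from 15 to 28 DAF: 23 higher, 11 lower, 77 tested but not called and 8 not tested. The line marks equal levels; 12 genes lie above it.

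In the endosperm the rule limits the level relative to the embryo maximum but does not set a direction of change. From MG to R14, 3 of the 111 genes tested rose and none fell (edgeR quasi-likelihood test), where 5.72% of all genes rose and 6.40% fell; 9 of the 111 had an unadjusted p under 0.05, and DESeq2 called 10 higher and 2 lower. Most of the 111 had too few endosperm counts to pass the filter on their own. With the compared endosperm libraries alone, 14 were tested, 2 rose and 2 fell, where 1300 of 18194 genes rose and 1255 fell. Nothing is read from the low share called. Solyc02g032660.3.1 rose from 0.421, 0.752 and 0.699 CPM to 3.01, 4.68 and 2.67 CPM (log2 fold change 2.27, standard error 0.45, edgeR, adjusted p = 6.33e-05). It had also risen in whole seeds. Solyc12g039170.1.1 rose from 0.109 ± 0.0720 to 0.430 ± 0.214 CPM (SD, n = 3; edgeR, adjusted p = 0.0178), a call that was lost without replicate 1, 2 or 3 (adjusted p from 0.0553 to 0.112).

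Solyc10g017510.3.1 was at or below the detection limit at MG and had 4.49, 0.676 and 1.08 CPM in the endosperm at R14, at least 14.8-fold higher on average (edgeR, adjusted p = 0.00844), but 0.180 without replicate 1. In the embryo it had 75.8, 3.95 and 0.428 CPM at R14 and 0.668, 0.191 and 26.6 CPM at R7, again highest in R14 replicate 1. The median of the 119 genes in endosperm stages did not exceed 0.0481 CPM, and it did not exceed 0.0313 CPM in seed coat stages.

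By the chromosome number in their identifiers, the genes were spread over all 12 chromosomes. Chromosome 11 held 15 of them (12.6%) and chromosome 10 held 13 (10.9%), where 6.67% and 6.54% of the 18510 genes lie on these chromosomes. Chromosome 12 held 12 (10.1%), against 6.33% of the 18510 genes. Chromosomes 5 and 7 held 4 each (3.36%), against 6.58% and 7.36%. These counts are small, and nothing is read from them.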

How the data were processed

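Single-end reads of 84 libraries were quantified by the authors with Salmon on the ITAG 4.0 transcripts and deposited as estimated counts of 33976 genes without normalization; 10.5% of the values are not whole. Groups and replicate numbers were taken from the sample titles; the numbers in the sample descriptions and column names differ from these in some stages from MG to R14. CPM was calculated from library totals. No column was left unused. The genes were found by the rule given at the start of the results. The genes, lists and tests were chosen with earlier results of these data known. Tests used rounded counts and the edgeR 4.0.16 quasi-likelihood model in R 4.3.3, fitted to every library with a mean for each group after filterByExpr and TMM, with Benjamini-Hochberg adjustment over 24676 genes; DESeq2 1.42.0 served as an alternative. Scripts for tables and figures used Python 3.11.15, pandas 2.3.3, numpy 2.4.6 and matplotlib 3.10.9. The rule and both tests were run on simulated data. Nothing is read from those runs about genes as low in level, or as variable between libraries, as most of those described here. A fold against a group with 3 counts or fewer in each library is a lower bound from 3 counts in the shallowest of them, and limits and spreads cover these samples only. Named were the 15 most abundant genes, the 6 smallest and 6 largest coefficients of variation from 5 CPM, 4 genes on each side of the 10-fold limit, up to 5 called genes per direction and test, and embryo genes named by the study. Genes named beyond this for their annotation, for a whole seed level above the embryo or for an opposite order of libraries were chosen after their values were seen. Transcription factors and functional groups could not be found by keyword, since the study's description table and tissue lists were held here in part, and sequences and promoters were not used here.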

Additional observations from a re-analysis of the deposited data

How the results depend on the processing

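The number of genes that met the rule was 78 with TMM factors, 75 with DESeq2 size factors, 59 with the median of the libraries, 190 at 5 times, 71 at 20 times, 60 above 5 CPM, 259 with no minimum level, 64 when whole seed also had to be 10 times lower, and 38 when all 3 libraries had to pass. Leaving out R14 replicate 1 and R7 replicate 3, chosen after seeing the data, gave 40, and 41 without DO replicate 2 as well. Leaving out 1 replicate or 1 over-ripe embryo library at a time gave 59 to 156. The median coefficient of variation was 1.12 with TMM factors.

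For whole seeds, 34 genes were called in all, and 21 to 32 with a replicate left out. For the endosperm, 3 were called, 12 of the 102 tested with DESeq2, and 1 to 3 with a replicate left out. With library totals, the median log2 fold change of all genes moved from -0.05 to -0.42 in whole seeds and from 0 to 0.15 in the endosperm, and 20 genes rose and 14 fell in whole seeds. Same-numbered libraries of the stages compared within a tissue did not deviate together (correlations from -0.10 to 0.04). Whether the numbers pair the embryo and endosperm libraries of a stage was not tested. Numbers are those of the titles, and in the endosperm the replicate 1 libraries of MG and R14 carry different numbers in the descriptions. With the replicate block, 34 and 3 genes were called. With the compared libraries alone, 40 of 54 (22 rose, 18 fell) and 4 of 14 were called. In the other settings, DESeq2 in whole seeds (33) included, the counts stayed within 1.5 times. Levels near 3 counts limit how well the preference of the weakest genes is known.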
